A study of Homo sapiens with 2 samples.

Results

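The amino acid transporter genes analyzed here were taken by name: every protein-coding gene of the solute carrier families SLC1, SLC3, SLC6, SLC7, SLC36, SLC38 and SLC43, with SLC7A11 left out by the rule. This gave 58 genes of the 60623 gene entries in the count tables. The sequenced RNA came from HepG2, a line of human hepatocellular carcinoma cells recorded as wild type, in 2 groups of 1 library each. Both groups were loaded for 24 h with 1 mM free fatty acids (FFA), a mixture of oleic and palmitic acid bound to albumin that makes the cells steatotic. The FFA group received no retinoid, and the FFA + 9-cis-RA group also received 10 μM 9-cis-retinoic acid, a ligand of the RXR and RAR nuclear receptors. The methods of the paper give 24 h for the ligand and place it after the fatty acids, while its results call it co-treatment. The paper states that the level of DMSO, the solvent of the ligand, was kept equal in all groups. The question addressed was how this ligand changes the transcriptome of fat-loaded hepatocyte-derived cells, and the libraries hold no untreated cells.

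Solute carriers of these families move amino acids and related small molecules across the plasma membrane and the lysosomal membrane. Some carriers accumulate substrates with the sodium gradient, while others exchange an amino acid inside the cell for another outside. The SLC3 proteins are heavy chains that carry several SLC7 light chains to the cell surface. Liver cells use such carriers to take up glutamine, alanine and cationic amino acids for protein synthesis, gluconeogenesis and urea production, and proliferating tumor cells depend on glutamine and leucine uptake. The family names are broader than their common label, since SLC6 also holds the carriers of creatine, taurine, betaine, GABA and monoamines, and SLC43A3 carries purine nucleobases.

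The FFA library held 60821539 counted fragments and the FFA + 9-cis-RA library 57669670. The retinoid response genes CYP26A1, RARB and DHRS3 had higher values in the FFA + 9-cis-RA library, as its label says. All 8 hepatocyte lineage markers examined were counted, from 278 counts for TTR to 296345 for SERPINA1, with log2 fold changes from -0.99 for AFP to 0.050 for APOB. Markers of other cells were low: PTPRC of leukocytes, DCN of fibroblasts and RBFOX3 of neurons had 0 counts in both libraries. The summed levels of these lists in the FFA and FFA + 9-cis-RA libraries were 0.592 and 0.451 CPM (counts scaled to the library total) for 4 leukocyte genes, 4.14 and 2.72 for 3 endothelial genes, and 0.641 and 0.416 for 4 fibroblast or stellate genes. For 3 neural genes the sums were 35.96 and 25.1 CPM, nearly all from SYP, with 2170 and 1436 counts. The part of these low markers in the results was not tested. In bulk RNA, fewer cells of a type and less RNA per cell cannot be told apart.

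Counts were divided by size factors, and the log2 fold change compares the FFA + 9-cis-RA library with the FFA library after a pseudocount of 1 was added to each normalized count. Gene coordinates are those of GRCh38 given in the count tables. A gene was compared where both libraries together held 10 counts or more. The bounds in brackets after a value are those of an exact 95% interval of counting error only, and since each group is a single library, neither a replicate error nor a p-value can be given. Differences between these libraries therefore include any difference between 2 cultures of the same treatment.

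Of the 58 transporter genes, 35 were compared, 13 had 1 to 9 counts and 10 had none. The genes with no count in either library included SLC1A1, SLC1A6, SLC6A2, SLC6A5, SLC6A15, SLC7A3, SLC7A4, SLC36A3 and SLC43A3. Where no count was seen, up to 3 remain possible, a level of 0.0493 CPM for the FFA library and 0.0520 CPM for the other. SLC1A3, SLC6A3, SLC6A7, SLC6A16, SLC6A17, SLC6A18, SLC6A20, SLC7A8, SLC7A10, SLC7A13, SLC7A14, SLC36A2 and SLC38A8 fell under the minimum, and no difference was detectable in them at this depth.

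The compared transporters did not differ in 1 direction: 20 were higher and 15 lower in the FFA + 9-cis-RA library, with a median log2 fold change of 0.041 beside -0.020 over all 20431 compared genes. The counting interval lay above 0 for 12 of the 35 genes and below 0 for another 12. Over all compared genes these shares were 22.5% and 25.7%, against 34.3% for the transporters in each direction, and well-counted genes such as these have narrower intervals. Above a log2 fold change of 0.5 there were 3 transporters (8.57%, with 9.03% of all compared genes), and below -0.5 there were 7 (20%, with 14.3% of all compared genes). Past 1 there was 1 gene above (3.37% of all compared genes) and 2 below (4.9%), of which SLC3A1 and SLC38A4 had few counts.

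Low counts fill these tails, so the 30 transporters with a mean of at least 100 normalized counts were also read against the 13075 genes that pass the same limit. Among them SLC6A12 and SLC43A2 were above 0.5 (6.67%, with 2.79% of all genes at this limit). SLC1A7, SLC6A11, SLC6A14, SLC38A5, SLC38A11 and SLC43A1 were below -0.5 (20%, with 6.49%). None of the 30 was above 1, where 0.39% of such genes lay, and SLC6A14 alone was below -1, where 1.32% lay. The other 22 of the 30 lay within 0.5 of 0.

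**Figure D1:**
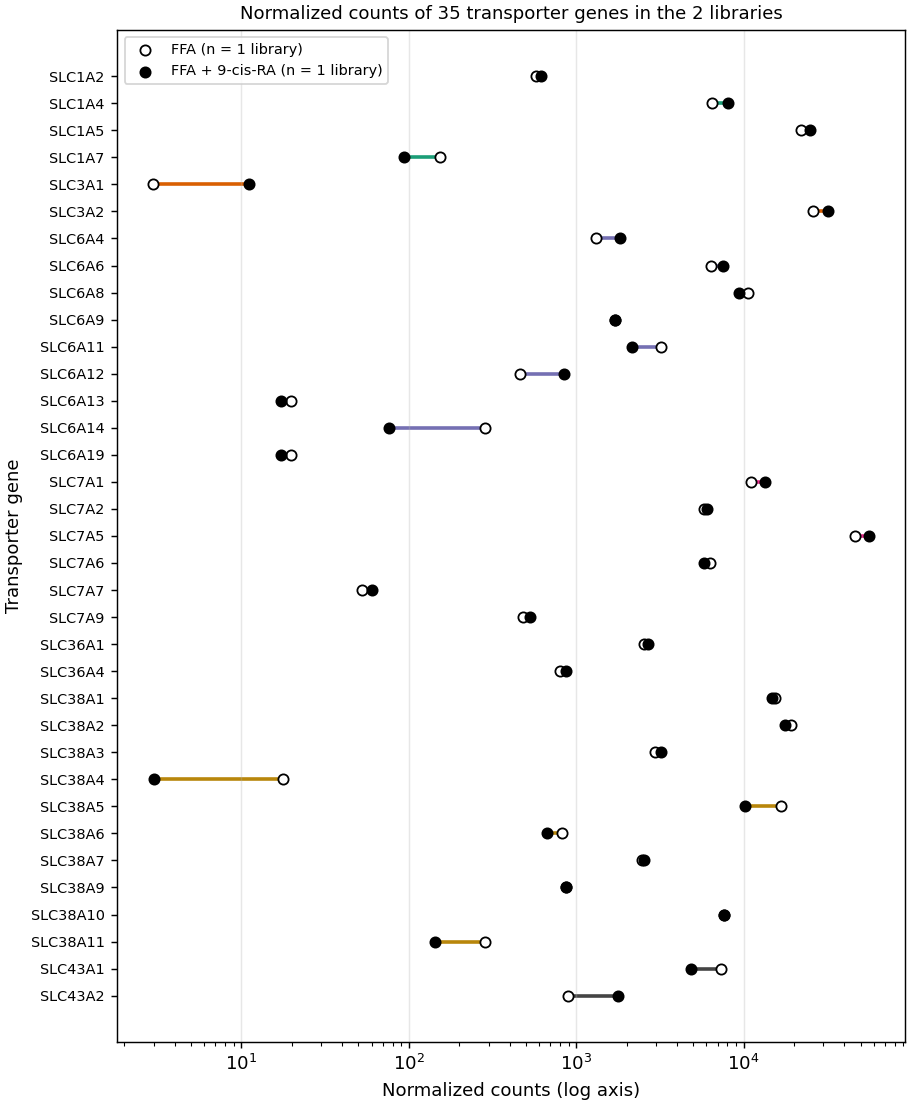
Normalized counts (log axis) of the 35 compared transporter genes in the FFA library (open circles) and the FFA + 9-cis-RA library (filled circles), 1 library per group, with line colors for the families. SLC7A5 has the highest values, 46490 and 55942, and the longest lines among genes with a mean of at least 100 belong to SLC6A14, SLC43A2, SLC38A11 and SLC6A12.

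The heteromeric exchangers formed the best-expressed unit, and both of its main chains were slightly higher with 9-cis-RA. SLC7A5, which encodes the leucine exchanger LAT1 on chromosome 16 from 87830023 to 87869507, had 46937 counts with FFA alone and 55409 with 9-cis-RA added. It was higher by 0.27 on the log2 scale (0.25 to 0.28), a 1.20-fold difference. SLC3A2, the gene of the CD98 heavy chain that LAT1 needs at the cell surface (chromosome 11, 62856102 to 62888875), had 26217 and 31650 counts. It was higher by 0.30 on the log2 scale (0.28 to 0.32). The count ratio of SLC7A5 to SLC3A2 was 1.79 in the FFA library and 1.75 with 9-cis-RA added, so the chains were in nearly the same proportion. The change of that ratio on the log2 scale was -0.032, with a counting interval from -0.062 to -0.0028. SLC7A11, another partner of this heavy chain that the rule leaves out, had 4804 and 6457 counts and a log2 fold change of 0.45.

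The other light chains of SLC3A2 were not all higher. SLC7A6, whose product exchanges cationic for neutral amino acids, had 6373 and 5730 counts (log2 fold change -0.13, interval -0.18 to -0.074). Its close relative SLC7A7 had 53 and 60 counts, and its interval from -0.35 to 0.77 included 0. Against SLC7A6, SLC7A5 was higher by 0.39 on the log2 scale (counting interval 0.34 to 0.45), a value that no scaling of the libraries changes. The second heteromer of these families pairs SLC7A9 with the heavy chain SLC3A1 and takes up cystine and cationic amino acids in kidney and intestine. SLC7A9 had 484 and 524 counts, which is 0.14 on the log2 scale with counting bounds from -0.039 to 0.32, whereas SLC3A1 had only 3 and 11 counts. The log2 fold change of SLC3A1 was 1.61, but its interval from -0.018 to 4.38 included 0. The lower bound was 0.0015 with TMM factors, another scaling of the libraries, and 0.031 with total counts, so this call changes with the scaling. With total counts the interval of SLC7A9 (0.010 to 0.37) also lay above 0. Another gene shares 26.9% of the exonic bases of SLC3A1 in the same orientation, and reads there were not counted.

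Among the cationic amino acid transporters of SLC7, SLC7A1 had the larger difference of the 2 that were compared. SLC7A1 encodes the widely expressed arginine carrier CAT1 on chromosome 13 from 29509414 to 29595688 and had 11234 counts with FFA alone and 13252 with 9-cis-RA added (log2 fold change 0.27, interval 0.23 to 0.30). SLC7A2, known for its liver form, had 5825 and 5986 counts (log2 fold change 0.067, interval 0.015 to 0.12). The change of SLC7A1 was close to that of SLC7A5 and SLC3A2, and that of SLC7A2 was smaller.

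The SLC1 carriers of alanine, serine, cysteine and glutamine were higher, and the glutamate carriers of the same family were sparsely expressed. SLC1A5, the gene of the glutamine exchanger ASCT2 on chromosome 19 from 46774883 to 46788594, had 22320 and 24829 counts (log2 fold change 0.18, interval 0.16 to 0.21). SLC1A4, the gene of ASCT1 on chromosome 2 from 64988477 to 65023865, had 6537 and 7973 counts (log2 fold change 0.31, interval 0.27 to 0.36). Both ASC carriers were thus higher by less than 0.5. Of 5 glutamate carriers, SLC1A2 had 581 and 608 counts with an interval from -0.073 to 0.26. SLC1A7, a carrier best known from the retina, had 155 and 93 counts (log2 fold change -0.70, interval -1.10 to -0.33). The remaining 3 glutamate carriers had at most 1 count.

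The SLC38 family, sodium-coupled carriers of glutamine and other small neutral amino acids, was on balance lower, and SLC38A5 accounted for most of the difference in counts. SLC38A5 encodes a system N carrier, which moves glutamine, asparagine and histidine in either direction, and is found at 48458537 to 48470260 of chromosome X. Its totals were 16923 counts with FFA alone and 10093 with 9-cis-RA added (log2 fold change -0.72, interval -0.75 to -0.68). SLC38A3, the system N carrier typical of hepatocytes around the central vein, had 2973 and 3176 counts (log2 fold change 0.12, interval 0.050 to 0.20). The system N genes therefore differed. Restated as a count ratio, SLC38A3 to SLC38A5 went from 0.176 to 0.315. This is a change of 0.84 on the log2 scale with a counting interval from 0.76 to 0.92. Ratios between genes, for this and the other pairs, were chosen after the values were seen.

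The system A genes, whose products concentrate alanine and other short-chain amino acids in the cell, had lower values, by little in those with many counts. SLC38A2, a carrier gene known to respond to amino acid supply, had 19460 and 17510 counts (log2 fold change -0.12, interval -0.15 to -0.095). SLC38A1 had 15645 and 14563 counts (log2 fold change -0.076, interval -0.11 to -0.043). These small values depended on the scaling, and with total counts as the scale they were -0.076 for SLC38A2 and -0.027 for SLC38A1, whose interval from -0.059 to 0.0060 then included 0. That of SLC7A6 was then -0.077. SLC38A4, the system A carrier typical of adult liver, had 18 and 3 counts, which is -2.22 on the log2 scale with counting bounds from -4.96 to -0.78. The liver form was thus nearly absent in both libraries while the widely expressed forms were among the best counted of the family.

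Of the less studied members of SLC38, 3 had intervals that included 0. SLC38A9, the lysosomal arginine sensor of mTORC1, had 877 and 866 counts, with an interval from -0.13 to 0.15. SLC38A7, a lysosomal glutamine exporter, had 2501 and 2525 counts, with an interval from -0.039 to 0.12. SLC38A10 had 7675 and 7514 counts, with an interval from -0.049 to 0.043. With total counts as the scale the intervals of SLC38A7 (0.010 to 0.17) and SLC38A10 (0.00010 to 0.092) lay above 0, so these calls depend on the scaling. SLC38A6 was lower, at 833 and 660 counts and a log2 fold change of -0.31 (-0.46 to -0.16). SLC38A11 had 290 and 143 counts (log2 fold change -0.99, interval -1.29 to -0.70), which is next to the threshold of -1 and passed it when the trend on gene length was removed, at -1.01. A gene that RefSeq names SLC38A12 is listed under its older name TMEM104 and was not counted among the 58. It had 2442 and 2762 counts and a log2 fold change of 0.21.

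Of the 44 transporters with a promoter window in the RefSeq table of GRCh38.p14, which covers 250 bases before to 50 bases after each annotated start, 6 held the motif TGATGNAA on either strand: SLC1A3, SLC1A4, SLC1A5, SLC3A2, SLC7A1 and SLC38A1. Of all 35116 windows of this length, 3.62% held the motif, as did 4.46% of 27305 genes counted over all of their windows. The motif is the core of the amino acid response element, to which ATF4 and C/EBP factors bind when amino acids are scarce. The search was chosen after the values were known, and a match is a description of letters and not a binding site. The 5 sequences of the expressed genes are shown because these include the carriers just described, with the motif in capitals, reading 5′ to 3′ on the strand of each gene.
SLC1A4: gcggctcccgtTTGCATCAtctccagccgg
SLC1A5: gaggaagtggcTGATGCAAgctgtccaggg
SLC3A2: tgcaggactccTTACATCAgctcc
SLC7A1: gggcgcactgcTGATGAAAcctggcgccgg
SLC38A1: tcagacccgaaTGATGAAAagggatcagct

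The SLC1A4 sequence lies at chr2:64989381-64989410 on the plus strand, and its motif is on the opposite strand, beginning 7 bases before an annotated start. The SLC1A5 sequence at chr19:46784893-46784922 is on the minus strand and begins its motif 97 bases before a start, while that of SLC38A1 at chr12:46266502-46266531, also on the minus strand, begins 4 bases before. In SLC7A1, at chr13:29595663-29595692 on the minus strand, the motif begins at base 8 after the start. In SLC3A2, at chr11:62881725-62881748 on the plus strand, it is on the opposite strand from base 38 and close to the end of the window. Genes with the motif did not share a direction: SLC1A4, SLC3A2, SLC7A1 and SLC1A5 were higher by 0.18 to 0.31 and SLC38A1 had a log2 fold change of -0.076. SLC7A5, with a log2 fold change like theirs, held no match in the table. Direct repeats of AGGTCA spaced by 1, 2 or 5 bases, some of the arrangements read by RXR pairs, were in none of the transporter windows, so none overlapped the motif there. Other spacings were not searched. They were in 0.0228%, 0.00285% and 0.0057% of all windows, both strands searched, so windows of this length seldom hold such exact letters.

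**Figure D2:**
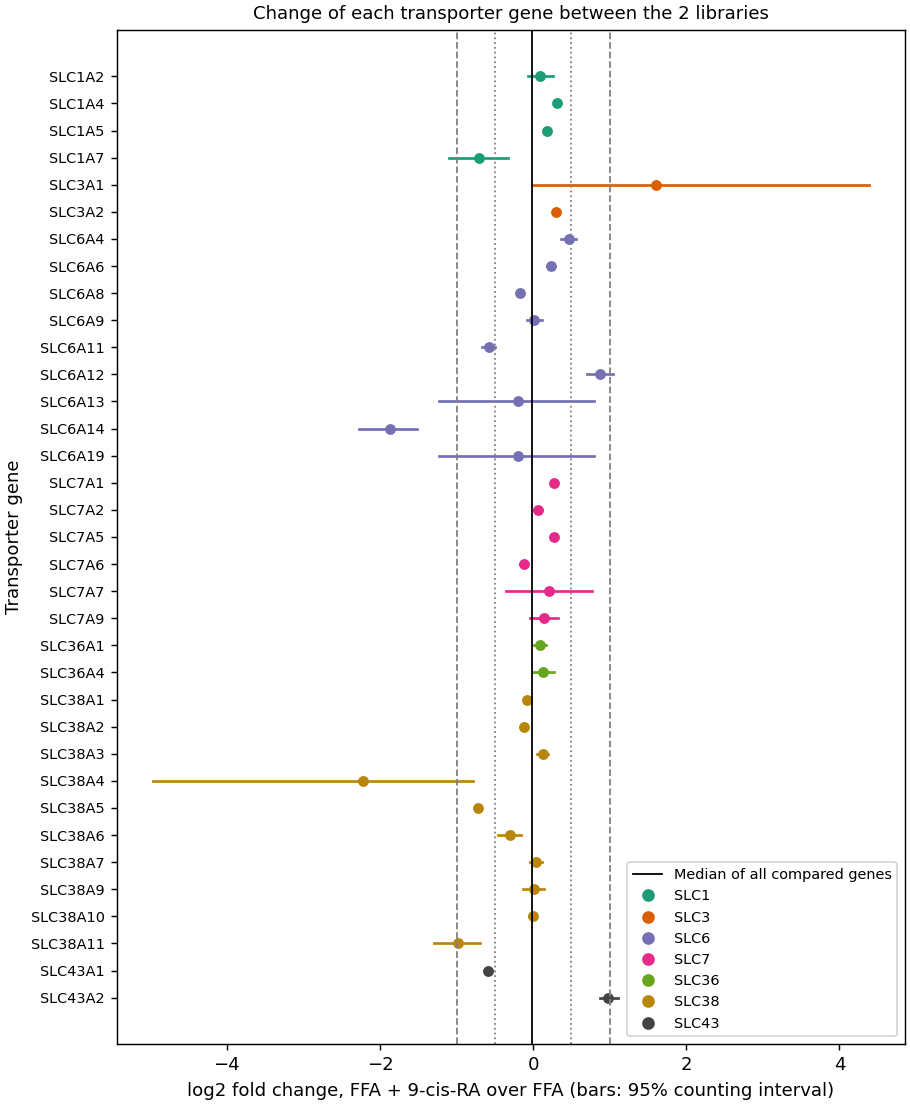
log2 fold change of the 35 compared transporter genes, FFA + 9-cis-RA over FFA, with exact 95% counting intervals as bars, colors for families, the median of all compared genes as a solid line and 0.5 and 1 in each direction as dotted and dashed lines. SLC43A2 (0.98) and SLC6A12 (0.87) lie to the right, SLC6A14 (-1.88) and SLC38A11 (-0.99) to the left, and SLC3A1 and SLC38A4 have wide intervals from few counts.

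The SLC6 family held differences in both directions. SLC6A12, the gene of the betaine and GABA carrier BGT1 that liver and kidney use for osmolytes, is found at 190077 to 214570 of chromosome 12. Its totals were 466 counts with FFA alone and 838 with 9-cis-RA added (log2 fold change 0.87, interval 0.71 to 1.04), or 1.83-fold. SLC6A11, a GABA carrier known mainly from brain, had 3240 and 2122 counts (log2 fold change -0.58, interval -0.66 to -0.50). These GABA carriers thus differed in opposite directions. Relative to SLC6A11, SLC6A12 was higher by 1.46 on the log2 scale (counting interval 1.28 to 1.64). SLC6A6, the taurine carrier, had 6424 and 7418 counts (log2 fold change 0.24, interval 0.19 to 0.28). SLC6A8, the creatine carrier, had 10676 and 9269 counts (log2 fold change -0.18, interval -0.22 to -0.14). The ratio of SLC6A6 to SLC6A8 was 0.602 in the FFA library and 0.800 with 9-cis-RA added. SLC6A13, another GABA carrier gene beside SLC6A12, had 20 and 17 counts and an interval from -1.23 to 0.80.

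The monoamine and glycine groups of SLC6 each had few expressed genes. SLC6A4, the serotonin transporter on chromosome 17 from 30194319 to 30236002, had 1335 and 1805 counts (log2 fold change 0.46, interval 0.36 to 0.57). With total counts its value was 0.51, which is past 0.5. The noradrenaline and dopamine transporters SLC6A2 and SLC6A3 had at most 1 count. SLC6A9, a glycine transporter, had 1716 and 1699 counts with an interval from -0.084 to 0.11. SLC6A14, a carrier of neutral and cationic amino acids on chromosome X from 116436606 to 116461458, had 287 and 76 counts. Its log2 fold change of -1.88 (-2.27 to -1.52) was the lowest among the 30 well-counted transporters. Of the 6 carriers of neutral amino acids such as SLC6A15 and SLC6A19, only SLC6A19 was compared, with 20 and 17 counts and an interval from -1.23 to 0.80. Its partner CLTRN, which carries it to the membrane in kidney, had 116 and 59 counts and a log2 fold change of -0.94.

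SLC43A1 and SLC43A2, which encode leucine and phenylalanine carriers that need no sodium, differed in opposite directions. SLC43A1, the gene of LAT3 on chromosome 11 from 57484534 to 57515780, had 7362 counts with FFA alone and 4788 with 9-cis-RA added (log2 fold change -0.59, interval -0.65 to -0.54). SLC43A2, the gene of LAT4 on chromosome 17 from 1569267 to 1628886, had 901 and 1749 counts (log2 fold change 0.98, interval 0.87 to 1.10), or 1.98-fold. The count ratio of SLC43A2 to SLC43A1 was 0.122 in the FFA library and 0.365 with 9-cis-RA added. This is a change of 1.58 on the log2 scale, with a counting interval from 1.45 to 1.70, the largest of the 9 pairs of genes whose ratios were computed, a comparison added after the values were seen. With TMM factors SLC43A2 had a log2 fold change of 1.00 and with total counts 1.03, both past the threshold of 1. SLC36A1 and SLC36A4, amino acid carriers of the lysosome and other membranes, had 2561 and 2664 counts and 805 and 867 counts. Their log2 fold changes were 0.084 (0.0057 to 0.16) and 0.13 (-0.0054 to 0.27). For SLC36A4 the lower bound was above 0 with TMM factors, at 0.015, and with total counts, at 0.044.

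**Figure D3:**
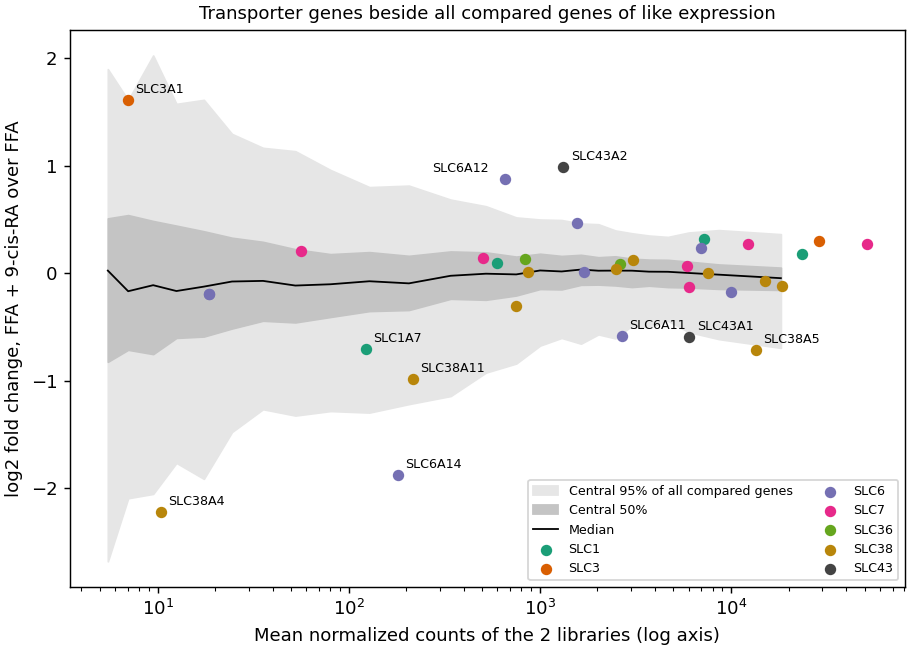
log2 fold change, FFA + 9-cis-RA over FFA, against the mean normalized count of both libraries (log axis) for the 35 compared transporters, with bands for the central 50% and 95% of all compared genes and their median in 25 bins of expression. Transporters past 0.5 in either direction are named, and the bands narrow from low to high counts.

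Set beside compared genes of similar expression, in 25 bins, 7 of the 35 transporters lay outside the central 95% of their bin. SLC6A4, SLC6A12 and SLC43A2 were above it, and SLC6A14, SLC38A4, SLC38A5 and SLC43A1 were below. The margins of SLC6A4, SLC38A5 and SLC43A1 were small. For SLC6A4 the upper limit of the bin was 0.46, equal to its value at this rounding, for SLC38A5 the lower limit was -0.70 and for SLC43A1 it was -0.55. The margins were wider for SLC43A2, with an upper limit of 0.49, for SLC6A12, with one of 0.52, and for SLC6A14, with a lower limit of -1.22. This places the genes among others in these libraries and is not a test.

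Compared by family, the transporter counts in the FFA + 9-cis-RA library held more SLC3 and SLC7 and less SLC38. In total the 58 genes had 229749 counts with FFA alone and 236522 with 9-cis-RA added. SLC7 took 30.9% of these in the FFA library (exact 95% interval 30.7 to 31.1) and 34.2% with 9-cis-RA added (34.0 to 34.4). SLC38 took 29.2% (29.1 to 29.4) and 24.1% (23.9 to 24.3). By counts, SLC7 and SLC38 were thus nearly level in the FFA library and about 10 percentage points apart in the other. Counts also depend on gene length. Scaled by exonic length and library total (TPM), SLC7 summed to 624 and SLC38 to 533 in the FFA library. With 9-cis-RA added these sums were 780 and 467 TPM. SLC3 took 11.4% and 13.4%, SLC1 12.9% and 14.2%, SLC6 10.5% and 9.84%, SLC43 3.60% and 2.76%, and SLC36 1.47% and 1.49%. Relative to the other families on the log2 scale, SLC3 was higher by 0.26, SLC7 by 0.22 and SLC1 by 0.16, whereas SLC38 was at -0.38, SLC43 at -0.39 and SLC6 at -0.11. For SLC36 the counting interval of this change, from -0.042 to 0.095, included 0.

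**Figure D4:**
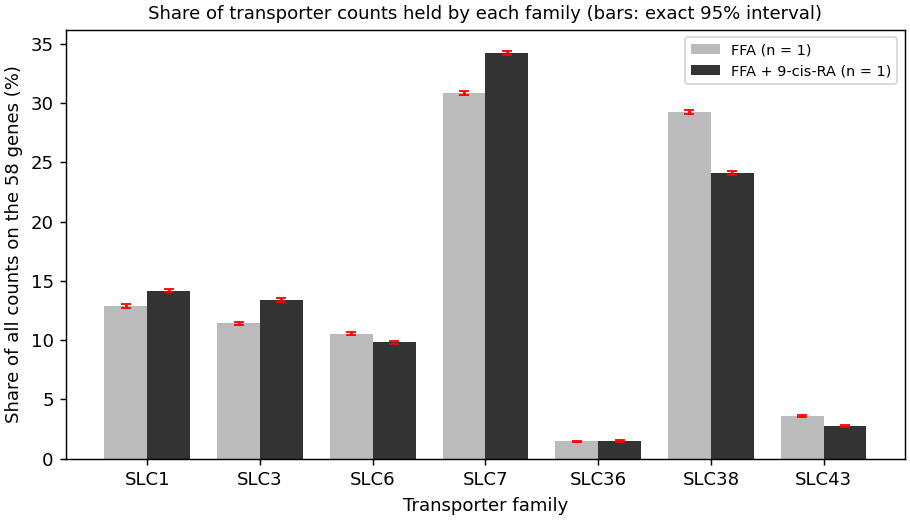
Share of all counts on the 58 transporter genes (%) held by each of 7 families in the FFA library (light bars) and the FFA + 9-cis-RA library (dark bars), 1 library per group, with exact 95% intervals. SLC7 and SLC38 are close in the FFA library (30.9% and 29.2%) and differ in the FFA + 9-cis-RA library (34.2% and 24.1%).

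Summed counts weigh the best-counted genes, so the members of each family were also compared as single genes. Of the 6 compared SLC7 genes, 5 were higher and 1 was lower, with a median log2 fold change of 0.17. Of the 10 compared SLC38 genes, 3 were higher and 7 lower, with a median of -0.10. Over all compared genes 9751 were higher and 10680 lower. Not all of these members had intervals that excluded 0. The interval lay above 0 for 3 SLC7 genes and below 0 for 1, and above 0 for 1 SLC38 gene and below 0 for 6. SLC1 had 3 higher and 1 lower gene with a median of 0.14, both SLC36 genes were above 0 with a median of 0.11, and the 9 SLC6 genes had 4 higher and 5 lower with a median of -0.18. This SLC6 median had no stable sign, at 0.013 with a minimum of 50 counts and 0.014 with none. The compared genes of SLC3 and SLC43 numbered 2 each, and their medians of 0.95 and 0.20 describe no single gene. With a minimum of 50 counts SLC3A2 alone was left in SLC3, at 0.30.

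The sums rested on few genes. SLC3A2 held nearly all of SLC3 counts in both libraries, SLC43A1 held 89.1% and 73.2% of SLC43, SLC1A5 75.4% and 74.1% of SLC1, and SLC7A5 66.2% and 68.4% of SLC7. The log2 fold change of the sum was 0.22 for SLC7 and 0.12 without SLC7A5. For SLC38 it was -0.21, and -0.24 without SLC38A2, its most counted gene. That setting keeps SLC38A5, which held most of the difference, with 16923 and 10093 counts where the family sum was 67197 and 57053. By these counts the value for SLC38 rests largely on SLC38A5, and a sum without that gene was not computed. The SLC43 sum had a log2 fold change of -0.31, but without SLC43A1 it is that of SLC43A2, 0.98. The SLC6 sum had no stable direction: it was -0.028, -0.0084 with TMM factors (interval -0.034 to 0.018), 0.021 with total counts (-0.0053 to 0.047) and 0.079 without SLC6A8.

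On the scale of TPM (counts scaled by exonic length and library total), the order of levels had SLC7A5 first in both libraries, at 469 TPM in the FFA library and 601 TPM with 9-cis-RA added. SLC1A5 followed with 319 and 385 TPM and SLC3A2 with 241 and 316 TPM. SLC38A5 came next, with 201 TPM in the FFA library, but in the FFA + 9-cis-RA library its 130 TPM was below the 139 TPM of SLC38A2, so these neighbors changed places. SLC43A1 was above SLC7A1 in the FFA library, at 99.5 against 69.6 TPM, and below it in the FFA + 9-cis-RA library, at 70.2 against 89.1 TPM. SLC43A2, although higher, stayed far below SLC43A1 with 4.05 and 8.53 TPM. The carriers typical of adult liver ranked behind, SLC38A3 with 35.7 and 41.4 TPM and SLC38A4 with 0.207 and 0.0374 TPM.

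Several of these genes lie side by side on a chromosome, and adjacent genes of a family mostly differed widely in level. SLC38A1 and SLC38A2, 88.2 kb apart on chromosome 12, had 15645 and 19460 counts with FFA alone, while SLC38A4 in the same cluster had 18 and 3. SLC43A3 is 57.0 kb from SLC43A1 and had no count, though another gene shares 29.9% of its exonic bases in the same orientation. On chromosome 5, SLC36A1 had 2561 and 2664 counts and its neighbors SLC36A2 and SLC36A3 had at most 4. SLC6A12 and SLC6A13 are 6.05 kb apart, and only SLC6A12 had more than 20 counts in a library. Of the 9 pseudogenes named after these families that the tables list, SLC6A10P had 4 counts in each library, SLC7A5P1 had 2 in each, and the others had none. Reads that map to several places were not counted, which can lower genes with near-identical copies such as SLC6A8 and SLC7A5.

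The other carriers and the sensors of amino acids were read from lists of known genes. Of 12 amino acid and peptide carriers of other families, 10 were compared, with a median log2 fold change of -0.013. None was above 1, where 3.37% of all compared genes lay, or below -1, where 4.9% lay. Of these 10 genes, 5 were higher and 5 lower, and the interval lay above 0 for 2, below 0 for 1 and included 0 for 7. The lysosomal cysteine carrier MFSD12 had 4803 and 5542 counts and a log2 fold change of 0.23, and the lysosomal cystine exporter CTNS 2691 and 2795 counts and 0.082. SLC15A3 was the gene with an interval below 0, at 97 and 56 counts (log2 fold change -0.75, interval -1.27 to -0.28). The list of 33 genes for amino acid sensing by mTORC1, the kinase complex that couples amino acid supply to growth, had a median of -0.041. It had 1 gene above 1 and 1 below -1, no larger shares than the 3.37% and 4.9% of all compared genes. Of the 33 genes, 14 were higher and 19 lower. SESN3, of the sestrin family of leucine sensors, had 137 and 298 counts (log2 fold change 1.14, interval 0.85 to 1.45). Its better-counted relatives differed in direction, SESN2 at 3652 and 4449 counts and 0.31, and SESN1 at 2252 and 1900 counts and -0.22. CASTOR2 of the arginine sensor family had 2150 and 3767 counts and 0.84, whereas WDR59 had 2810 and 1987 counts and -0.47. CASTOR1 was the gene below -1, at 10 and 4 counts with an interval that included 0. The medians of both lists were close to the -0.020 of all compared genes.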

How the data were processed

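Counts of fragments per gene were deposited as they came from the counter, not normalized, for poly(A) RNA of 2 libraries (1 per group, total counts 60821539 and 57669670, labelled as the same batch). Per the file headers they used featureCounts version 2.0.1, with strand setting 2 (reverse), requiring that both ends of a pair map and checking the fragment length. Multi-mapping and multi-gene reads were not counted. The submitters' processing notes name GRCh38 and DESeq2. The aligner is not given in the sources used here.

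Of 60623 entries, 60295 had a symbol and 58516 a GENCODE release 29 gene type. Size factors were from DESeq2 version 1.42.0, with TMM (edgeR version 4.0.16, R version 4.3.3) and total counts as alternatives. The count minimum was 10, the pseudocount 1 and the thresholds 1 and 0.5 on the log2 scale. Intervals are Clopper-Pearson at 95%, ratios between genes use large-sample intervals of log odds, and all cover counting error only (Python 3.11.15, scipy 1.17.1, statsmodels 0.14.6, loess span 0.3). TPM used the exonic length in the files. Steps were tested on simulated data.

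Genes with at least 100 normalized counts in a library were named with values, those under 10 counts by name, and those in between by range, or by name where the interval excluded 0. Values of 4 such genes whose interval included 0 are given outside this rule. The members and lists were chosen with earlier results of these data known. No model could be fitted with 1 library per group, so DESeq2 gave no p-value here. Some results are not reported here.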

Additional observations from a re-analysis of the deposited data

How the results depend on the processing

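Values were recomputed with TMM or total counts as the scale, a pseudocount of 0.1 or 5, a minimum of 50 counts or none, and removal of the trend on expression or on gene length. Of 276 values of single genes under these settings, 256 stayed within the counting interval of the reported value, 20 moved past it and 0 changed sign where the interval excluded 0. Of 117 counts, medians and sums, 93 stayed within their interval or within 1.5 times of a count, and the others follow. Intervals of medians are wide, and values among the 93 still moved: the SLC6 median turned from -0.18 to 0.013 with at least 50 counts and 0.014 with no minimum, and the SLC3 median went from 0.95 to 0.30 with at least 50 counts. The SLC7 median was 0.040 with no minimum, and that of all transporters ranged from 0.00064 (length trend removed) to 0.091 (total counts). With TMM, 2 genes were above 1, the SLC7 sum was 0.24 and the SLC38 sum -0.19. With total counts, 2 genes were above 1, the SLC38 median was -0.051, and the sums were 0.26 for SLC1, 0.35 for SLC3, 0.27 for SLC7, -0.16 for SLC38, -0.26 for SLC43 and, reversed, 0.021 for SLC6. With at least 50 counts, where fewer genes are compared, 0 genes were above 1 and 1 below -1. With no minimum, where more are compared, 3 were above 1, 4 below -1, 5 above 0.5 and 13 below -0.5. With the length trend removed the SLC38 median was -0.15. Without the most counted gene the sums were 0.28 for SLC1, 1.61 for SLC3, 0.12 for SLC7, -0.24 for SLC38 and, reversed, 0.079 for SLC6 and 0.98 for SLC43. The cause was not tested, except that the last setting drops the most counted gene of each sum, which for SLC38 is not SLC38A5. No paired analysis was possible because each group has 1 library. Depth limits genes under 10 counts, and the spread between cultures cannot be measured.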
